A study of Mus musculus with 21 samples.

Results

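The comparison was between glomeruli of mice with podocyte-specific deletion of Epac1 on day 4 of nephrotoxic serum nephritis (4 libraries) and glomeruli of mice of the same genotype injected with PBS (3 libraries). These 7 libraries, chosen by genotype and treatment in the sample labels, were among 21 in the series, 1 from each of 21 female mice aged 3 months. All mice carried floxed Epac1 alleles (Epac1fl/fl). The mice called cKO here also carried a Cre transgene that acts in podocytes, and their littermates without it are called flox. Nephritis was induced by intravenous injection of decomplemented nephrotoxic serum (NTS) on 2 consecutive days, and the kidneys were taken at an early stage (day 4) or a later stage (day 11). Besides cKO day 4 and cKO PBS, the cKO day 11 group (4 libraries), the flox day 4 group (3 libraries) and the flox PBS group (3 libraries) entered single comparisons, and the flox day 11 group (4 libraries) entered only the shared estimate of spread. Glomeruli were cut from frozen sections by laser microdissection and sequenced with QuantSeq FWD, a kit that reads the 3' ends of polyadenylated transcripts. Of 35598 genes in each table, 3505 had a mean of at least 50 CPM (read counts scaled to a common library size) over the 7 libraries, and the comparison rests on these. The Cre transgene is directed to podocytes, so the deletion is not meant for the endothelial, mesangial and parietal cells that share the glomerulus. In such mixed tissue, fewer cells of a type and less RNA per cell cannot be told apart.

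Epac1, encoded by Rapgef3, is a guanine nucleotide exchange factor that cyclic AMP activates directly and that switches on the small GTPases Rap1 and Rap2, which act on cell adhesion and the actin cytoskeleton. Podocytes are the epithelial cells whose interdigitating foot processes, built on actin, close the outer side of the glomerular filter. Nephrotoxic serum holds antibodies against glomerular antigens, and in mice it injures podocytes and the glomerular capillary wall. The study asked what podocyte Epac1 contributes to the progression of glomerulonephritis.

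The cKO day 4 libraries held 19781917, 19523178, 12465771 and 22351044 reads in replicates 1 to 4, and the cKO PBS libraries held 20487685, 19889645 and 20974777 in replicates 1 to 3. Replicate 3 of day 4 was the shallowest and detected the fewest genes: 7871 genes had a read there, against 12167, 9032 and 10378 in the other day 4 libraries and 11025, 12350 and 12509 in the PBS libraries. Of the 3505 genes tested, 234 had no read in replicate 3 of day 4, while 5, 86 and 23 had none in day 4 replicates 1, 2 and 4, and 22, 6 and 5 had none in the PBS libraries. Of those 234 genes, 201 had at least 10 CPM in each of the other 3 day 4 libraries. The same library held the lowest of the 7 values for 30.2% of tested genes and the highest for 25.1%, and its median rank correlation with the other day 4 libraries was 0.356. Replicates 1, 2 and 4 of day 4 stood at 0.549, 0.489 and 0.489, against 0.663 to 0.699 for each PBS library with the other PBS libraries. Values are therefore given per library, in the order of replicates 1 to 4 for day 4 and 1 to 3 for PBS, and the results that rest on replicate 3 of day 4 are given with and without it.

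**Figure D1:**
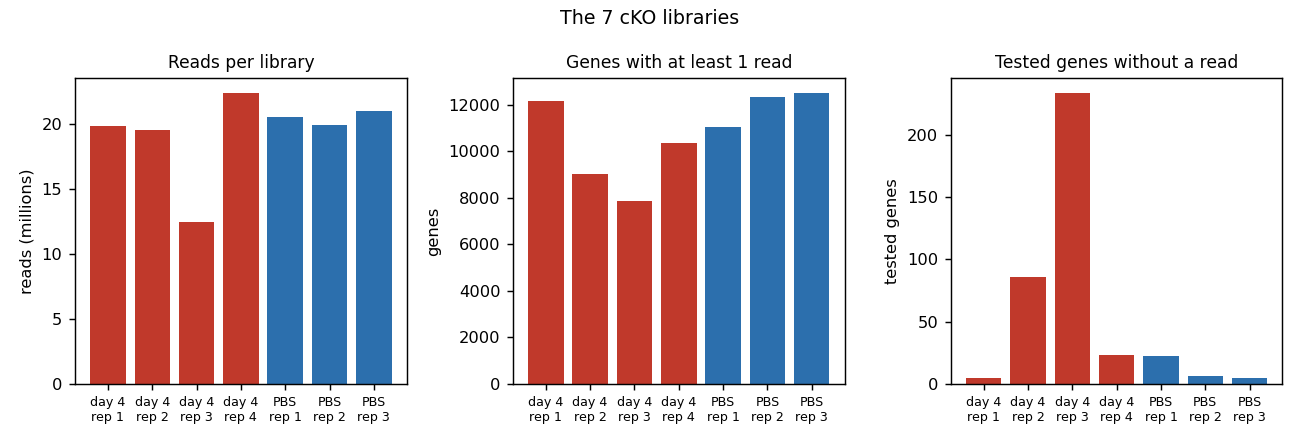
Reads (left), genes with at least 1 read (middle) and tested genes without a read (right) in each of the 7 cKO libraries, day 4 in red and PBS in blue. Replicate 3 of day 4 has the fewest reads (12465771), the fewest genes with a read (7871) and the most tested genes at 0 (234).

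Rapgef3, the targeted gene, had 126, 145, 63.2 and 144 CPM in cKO day 4 glomeruli, against 160.2, 137 and 64.2 CPM in cKO PBS glomeruli. The lowest library of each group lay near the same level, the groups overlapped, and the log2 fold change was -0.01 ± 0.41 (standard error of the edgeR fit, here and below). Its sign turned in 8 of the 20 alternative analyses. Both groups carry the deletion, and a 3' tag can lie outside the deleted exons, so this level does not check the knockout. Rapgef4, which encodes the related exchange factor Epac2, had 48.4, 138, 0 and 50.1 CPM at day 4, against 87.4, 15.6 and 62.0 CPM after PBS, with a log2 fold change of 0.10 ± 1.13, which was 0.52 without replicate 3 of day 4.

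Of 29 genes of the Epac, Rap and cyclic AMP list, 18 were tested, with 9 higher and 9 lower at day 4 and a median log2 fold change of 0.04, whose sign turned in 8 of 20 alternative analyses. Rapgef1, an exchange factor for Rap1, was the single member whose groups did not overlap, with 145, 135, 84.3 and 93.9 CPM in cKO day 4 glomeruli, against 37.6, 61.7 and 22.98 CPM in cKO PBS glomeruli. All 4 day 4 libraries lay above the PBS libraries, and the log2 fold change was 1.49 ± 0.56. This is 1 of 18 genes (5.56%), a share near the 3.79% of all tested genes. Rapgef1 averaged under 50 CPM after PBS and reached that level only through the day 4 group. Gnas, which encodes the stimulatory G protein subunit upstream of adenylyl cyclase, had 301, 142, 277 and 151 CPM at day 4, against 421, 359.6 and 291 CPM after PBS, and its groups overlapped only in replicate 1 against replicate 3. Prkar2a, a regulatory subunit of protein kinase A, had a log2 fold change of -0.75 ± 0.51, and Akap12, an anchoring protein for that kinase, had 0.94 ± 0.37.

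No gene passed the test at day 4. With edgeR's quasi-likelihood test and Benjamini-Hochberg adjustment over the 3505 genes, 0 genes (0%) had an adjusted p under 0.05, the smallest adjusted p was 0.433, and 184 genes had an unadjusted p under 0.05, with 3.08% of tested genes higher and 2.17% lower. In DESeq2, on the same genes, 10 passed: Tpm4, Hint1, Hist1h2ap, Tuba1b, Myl9, Cfl1, Flna and Hist1h2ao were higher, and Thsd7a and Vegfa were lower. In limma voom with quality weights, Tpm4 and Tuba1b passed. Of the tested genes 1890 were higher and 1615 lower, with a median log2 fold change of 0.08; over the whole filtered table of 13898 genes, values of 6307 were higher and of 7380 lower, the median was -0.09, and again 0 (0%) passed, while 1134 genes had an unadjusted p under 0.05, 307 higher and 827 lower. In 133 genes (3.79%) every day 4 library lay above every PBS library, and in 122 genes (3.48%) every day 4 library lay below.

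Tpm4 (chr8:72134975-72153142 in mm10) encodes a tropomyosin, a protein that winds along actin filaments. It had 749, 756, 490.0 and 1169.5 CPM in cKO day 4 glomeruli, against 399.99, 293 and 323 CPM in cKO PBS glomeruli. The groups did not overlap, the log2 fold change was 1.22 ± 0.30 (edgeR adjusted p = 0.433, DESeq2 adjusted p = 0.00818), and without replicate 3 of day 4 it was 1.40.

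Hint1 (chr11:54866383-54870501) encodes a histidine triad nucleotide-binding protein. Its values were 382, 440.1, 503 and 367 CPM in cKO day 4 glomeruli, against 174, 162 and 244 CPM in cKO PBS glomeruli. Here replicate 3 was the highest library, the groups did not overlap, and the log2 fold change was 1.13 ± 0.27 (edgeR adjusted p = 0.433, DESeq2 adjusted p = 0.00818).

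Tuba1b (chr15:98931425-98934565) encodes an alpha-tubulin, a building block of microtubules. It stood at 1059.7, 1082, 629 and 1155 CPM in cKO day 4 glomeruli, against 497, 517 and 447 CPM in cKO PBS glomeruli. Replicate 3 lay well below the other day 4 libraries but still above all PBS libraries, and the log2 fold change was 1.01 ± 0.25 (edgeR adjusted p = 0.433, DESeq2 adjusted p = 0.0120).

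Hist1h2ap (chr13:21833026-21833507), a replication-dependent histone H2A gene of the large cluster on chromosome 13, had 227, 619.9, 43.8 and 473 CPM in cKO day 4 glomeruli, against 8.80, 20.7 and 87.4 CPM in cKO PBS glomeruli. Replicate 3 of day 4 lay below the highest PBS library, and the log2 fold change was 3.13 ± 0.88. Hist1h2ap averaged 39.0 CPM after PBS and 341 CPM at day 4, so it reached 50 CPM only through the day 4 group. The neighbouring Hist1h2ao, named after its values were seen because DESeq2 called it, had 175, 581, 53.3 and 438 CPM at day 4, against 13.3, 31.6 and 74.7 CPM after PBS. Hist1h2ao, too, averaged under 50 CPM after PBS. Histone genes of this cluster are near copies of each other, so how their reads were divided is uncertain.

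Serf2, a small protein linked to protein aggregation, had 467, 789, 591 and 571 CPM at day 4, against 239.8, 316 and 386 CPM after PBS, and Tspan9, a membrane protein of the tetraspanin family, had 198, 573, 245 and 419 CPM at day 4, against 74.9, 160.4 and 167 CPM after PBS. Neither gene's groups overlapped, with log2 fold changes of 0.95 ± 0.27 and 1.42 ± 0.42. R3hdm4, whose protein carries an R3H nucleic acid binding domain, had 142, 149, 182.3 and 184 CPM at day 4, against 62.8, 28.9 and 52.1 CPM after PBS, again without overlap, at a log2 fold change of 1.78 ± 0.50. R3hdm4 averaged 47.9 CPM after PBS, so it reached 50 CPM only through the day 4 group.

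On the lower side, Thsd7a (chr6:12311610-12749410), a podocyte membrane protein that is an autoantigen in human membranous nephropathy, had 482, 433, 526 and 623 CPM in cKO day 4 glomeruli, against 1204, 1251 and 1043 CPM in cKO PBS glomeruli. All day 4 libraries lay far below the PBS libraries, replicate 3 among them, and the log2 fold change was -1.18 ± 0.29 (edgeR adjusted p = 0.433, DESeq2 adjusted p = 0.0186).

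Vegfa (chr17:46016993-46032369), the growth factor that podocytes supply to the glomerular endothelium, had 213, 193, 309 and 126 CPM in cKO day 4 glomeruli, against 701, 359 and 435 CPM in cKO PBS glomeruli. The groups did not overlap, and the log2 fold change was -1.25 ± 0.33 (edgeR adjusted p = 0.583, DESeq2 adjusted p = 0.0436). Nrp1, a co-receptor for that growth factor, was lower without overlap as well, with 409, 336, 351 and 293 CPM at day 4, against 917, 664 and 672 CPM after PBS, at a log2 fold change of -1.11 ± 0.35.

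Serinc1, a membrane protein of the serine incorporator family, had 23.02, 23.6, 71.1 and 37.3 CPM in cKO day 4 glomeruli, against 129.7, 212 and 105 CPM in cKO PBS glomeruli. The day 4 libraries did not reach the PBS range, and the log2 fold change was -1.94 ± 0.52. Serinc1 averaged 38.8 CPM at day 4 and reached 50 CPM only through the PBS group. Ets1, a transcription factor of endothelial and lymphoid cells, had 118, 55.1, 40.9 and 58.6 CPM at day 4, against 349.8, 236 and 129.97 CPM after PBS, and Aebp1, a carboxypeptidase-like protein of connective tissue, had 207, 219.8, 139 and 133 CPM at day 4, against 542, 335 and 326 CPM after PBS. Both were lower without overlap, at -1.81 ± 0.58 and -1.20 ± 0.37. The last members of the 10 lower genes with the smallest p were Xist and Tef, whose groups overlapped, and Robo2 and Igfbp5, described with their cell types. Xist, the noncoding RNA that silences 1 X chromosome in females, had a log2 fold change of -0.89 ± 0.28, and Tef, a transcription factor under circadian control, had -1.51 ± 0.48.

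**Figure D2:**
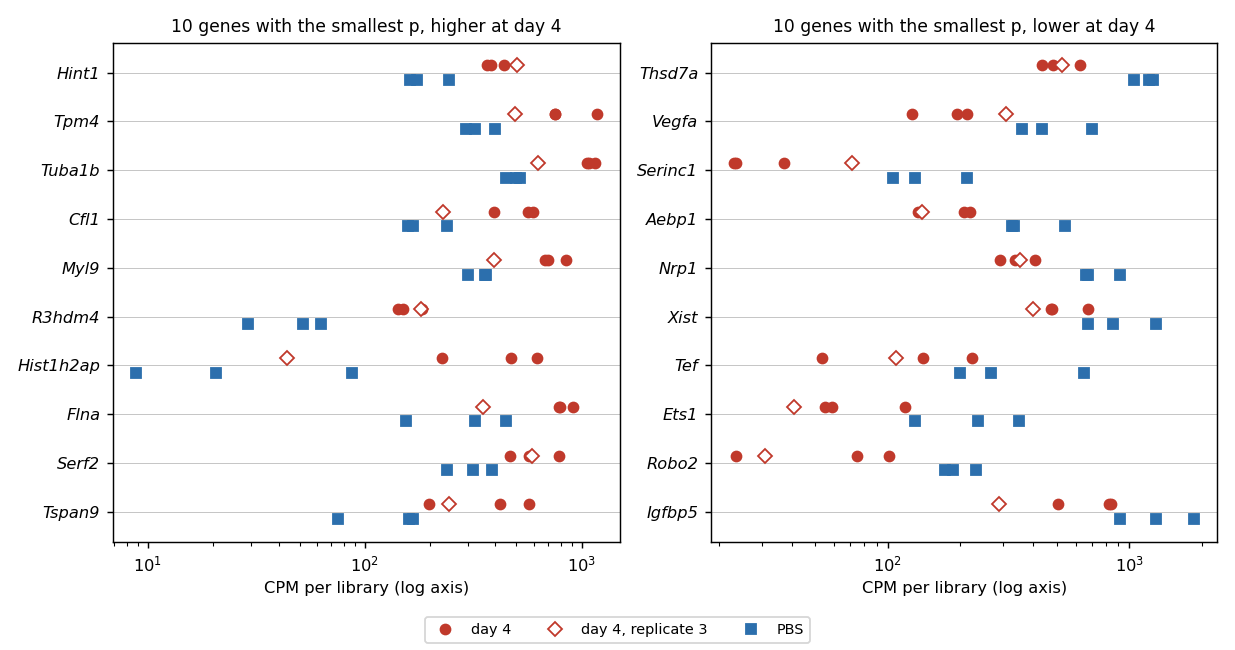
CPM in each library on a log axis for the 10 genes with the smallest p among those higher (left) and lower (right) at day 4; red marks are cKO day 4, with replicate 3 as an open diamond, and blue squares are cKO PBS. Replicate 3 falls into the PBS range for Cfl1, Hist1h2ap and Flna, and stays outside it for Hint1, Tpm4, Tuba1b, Thsd7a and Vegfa.

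Genes of the actin cytoskeleton and of contraction were mostly higher at day 4. Of 41 listed genes, 35 were tested, 31 were higher and 4 lower, and the median log2 fold change was 0.63, against 0.08 over all tested genes, of which 53.9% were higher. In 6 of the 35 (17.1%) every day 4 library lay above every PBS library, against 3.79% of all tested genes, and none lay wholly below. Without replicate 3 of day 4 the groups did not overlap in 17 of 35 genes (48.6%), against 7.79% of all tested genes, and the median was 0.72. Over the 20 alternative analyses the median stayed between 0.60 and 0.75. None of these 35 genes had an edgeR adjusted p under 0.05, while DESeq2 called Tpm4, Myl9, Cfl1 and Flna. Glomeruli hold smooth-muscle-like mesangial cells and arteriolar muscle beside podocytes, and the share of each in these values was not tested. The median of the mesangial and juxtaglomerular list was -0.32.

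Among regulators of contraction, Myl9, a regulatory light chain of smooth muscle and nonmuscle myosin, had 696, 842, 395 and 679.5 CPM in cKO day 4 glomeruli, against 298, 358 and 361 CPM in cKO PBS glomeruli. All 4 lay above the PBS libraries, replicate 3 only just, and the log2 fold change was 0.94 ± 0.26. Myl6, the essential light chain, had 1947, 1707, 1420.4 and 1971 CPM at day 4, against 1235, 1045 and 1079 CPM after PBS, without overlap and at 0.65 ± 0.24.

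Acta2, smooth muscle alpha-actin, had 737, 396, 219 and 662 CPM in cKO day 4 glomeruli, against 127, 251 and 228 CPM in cKO PBS glomeruli. Replicates 1, 2 and 4 of day 4 lay above the PBS range and replicate 3 within it, and the log2 fold change was 1.32 ± 0.42. Tagln, a calponin-family protein of smooth muscle, had 118, 312, 5.51 and 160.9 CPM at day 4, against 3.75, 69.1 and 30.9 CPM after PBS, with replicate 3 again within the PBS range. Its log2 fold change was 2.11 ± 0.83. Tagln averaged under 50 CPM after PBS and reached that level only through the day 4 group.

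Among proteins that cross-link or turn over actin filaments, Flna, the cross-linker filamin A, had 913, 783, 350.4 and 791 CPM in cKO day 4 glomeruli, against 154, 322 and 448 CPM in cKO PBS glomeruli. Replicate 3 of day 4 lay below the highest PBS library, the log2 fold change was 1.20 ± 0.34, and without that library it was 1.43 and the groups no longer overlapped. Cfl1, which encodes cofilin, a severing factor, had 395, 566, 230.2 and 594 CPM at day 4, against 158, 239 and 166 CPM after PBS. Its lowest day 4 library, replicate 3, lay just under the highest PBS library, at a log2 fold change of 1.25 ± 0.34.

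Actn4, alpha-actinin of the podocyte foot process, in which human mutations cause focal segmental glomerulosclerosis, had 1124, 1385, 1046 and 971 CPM in cKO day 4 glomeruli, against 564, 730.4 and 769 CPM in cKO PBS glomeruli. The day 4 libraries lay above the PBS libraries, at 0.72 ± 0.26. Its relative Actn1 had 264, 279.9, 318 and 340.2 CPM at day 4, against 87.97, 133 and 154 CPM after PBS, without overlap and at 1.27 ± 0.43. Tln1, the integrin-binding adaptor talin, had 633, 639, 1406 and 847 CPM at day 4, against 432, 608 and 404 CPM after PBS, and its fold change of 0.87 ± 0.32 shrank to 0.55 without replicate 3 of day 4.

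The 4 members with lower values were Vcl, Arpc2, Cald1 and Cnn3, at log2 fold changes of -0.39, -0.37, -0.19 and -0.02, and the groups overlapped in each. The sign of Cnn3 turned in 5 alternatives. Vcl, the focal adhesion protein vinculin, had 127, 78.1, 104 and 186 CPM in cKO day 4 glomeruli, against 224, 177.3 and 85.2 CPM in cKO PBS glomeruli. Actg1, cytoplasmic gamma-actin, had 951, 508, 319 and 661 CPM at day 4, against 169.4, 433 and 422 CPM after PBS. It overlapped through replicate 3 of day 4, at a log2 fold change of 0.84 ± 0.51.

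**Figure D3:**
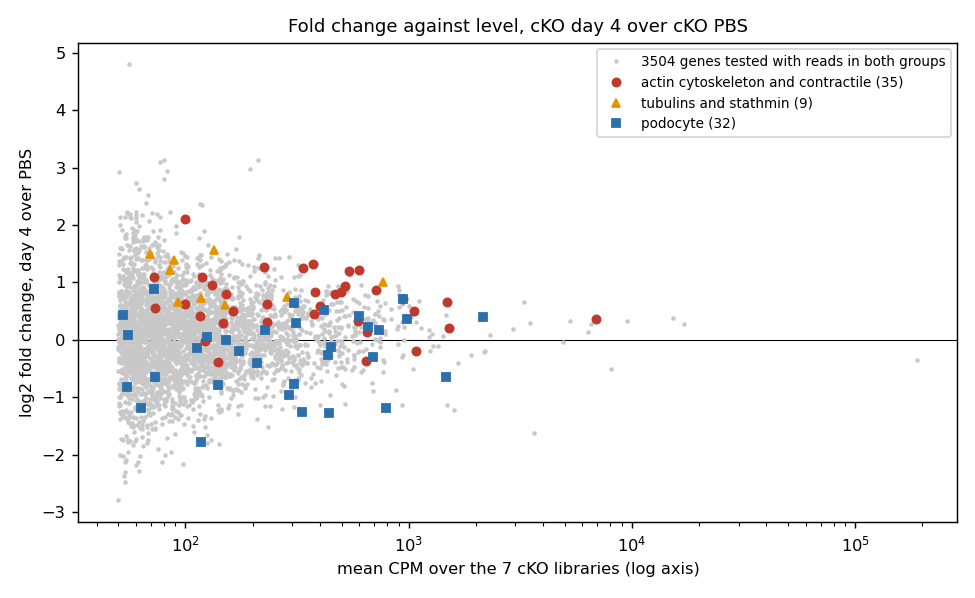
Log2 fold change of cKO day 4 over cKO PBS against the mean CPM of the 7 libraries (log axis) for the 3504 tested genes with reads in both groups (grey; 1 gene without a read in any PBS library is not drawn), with the actin (red circles), tubulin (orange triangles) and podocyte lists (blue squares). Of the red circles 31 lie above 0 and 4 below, all 9 orange triangles lie above 0, and the blue squares divide into 14 above and 18 below.

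The promoters of these actin genes were searched for the CArG box, the motif that serum response factor binds in muscle and cytoskeletal genes, on both strands of windows from 250 bases before to 50 bases after each annotated start (RefSeq, GRCm38.p6). The box was present in 6 of the 32 listed genes with a window (18.8%), against 54 of 2766 tested genes (1.95%) and 488 of 27025 genes in all (1.81%). The 6 were Myl9, Actg1, Cnn2, Vcl, Myl6 and Fhl2. The windows of Myl9 and Myl6 (values without overlap), Actg1 (above every PBS library in 3 of 4 day 4 libraries) and Vcl (lower mean at day 4) are shown because they span the range of values among the genes with a box. They lie at chr2:156775214-156775513 on the plus strand, chr10:128492960-128493259 on the minus strand, chr11:120348446-120348745 on the minus strand and chr14:20929148-20929447 on the plus strand, and the capitals mark the box, which begins between 50 and 227 bases before the start.
Myl9: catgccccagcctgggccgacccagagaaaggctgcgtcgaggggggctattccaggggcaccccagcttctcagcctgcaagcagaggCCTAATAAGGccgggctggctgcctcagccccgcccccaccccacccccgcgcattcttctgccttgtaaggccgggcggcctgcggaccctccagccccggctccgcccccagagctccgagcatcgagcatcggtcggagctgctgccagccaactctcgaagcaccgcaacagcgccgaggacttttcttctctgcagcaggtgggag
Myl6: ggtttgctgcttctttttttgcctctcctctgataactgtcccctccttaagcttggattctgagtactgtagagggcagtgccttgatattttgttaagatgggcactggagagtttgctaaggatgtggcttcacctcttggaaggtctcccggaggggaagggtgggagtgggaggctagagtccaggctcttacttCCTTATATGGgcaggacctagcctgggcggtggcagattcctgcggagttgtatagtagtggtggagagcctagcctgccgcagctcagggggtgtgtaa
Actg1: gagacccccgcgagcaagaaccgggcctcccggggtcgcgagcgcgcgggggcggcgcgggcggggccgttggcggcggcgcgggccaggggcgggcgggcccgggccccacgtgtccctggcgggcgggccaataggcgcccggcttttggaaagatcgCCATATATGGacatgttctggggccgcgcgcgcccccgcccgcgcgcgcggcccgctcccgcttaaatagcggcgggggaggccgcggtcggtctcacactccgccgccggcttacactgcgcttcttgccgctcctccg
Vcl: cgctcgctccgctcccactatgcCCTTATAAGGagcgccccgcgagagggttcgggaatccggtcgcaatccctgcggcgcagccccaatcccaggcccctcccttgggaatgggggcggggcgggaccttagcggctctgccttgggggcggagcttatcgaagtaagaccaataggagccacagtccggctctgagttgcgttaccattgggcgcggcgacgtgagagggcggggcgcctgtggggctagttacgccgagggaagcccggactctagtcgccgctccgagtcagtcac
A match says that these letters are present in the window. The cyclic AMP response element TGACGTCA was present in 1 of the 32 genes (3.12%), against 3.4% of tested genes, and the AP-1 site TGANTCA in 5 (15.6%), against 6.33%. The box was found in none of the 7 tubulin-list genes with a window and in 1 of 23 podocyte-list genes (4.35%).

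In the remaining genes with a box the groups overlapped. Cnn2, a calponin, had 113, 279, 247 and 106 CPM at day 4, against 79.7, 148 and 93.4 CPM after PBS, and Fhl2, a LIM-domain protein that binds focal adhesions and transcription factors, had 157, 154.7, 118 and 37.1 CPM at day 4, against 86.5, 66.9 and 72.9 CPM after PBS. Cnn2 stood at a log2 fold change of 0.80 ± 0.54 and Fhl2 at 0.63 ± 0.53.

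All 9 tested members of the tubulin and stathmin list (of 12) had higher values at day 4, and their median log2 fold change was 1.01. In 3 of the 9 (33.3%) the groups did not overlap, against 3.79% of all tested genes. Over the alternative analyses the median stayed between 0.74 and 1.13, and it was 1.01 without replicate 3 of day 4. Tuba4a and Stmn1 averaged 46.2 and 34.2 CPM after PBS and reached 50 CPM only through the day 4 group. Members under 50 CPM over the libraries, Tubg1 among them, are not in these counts. The count of higher members and the median of this list thus rest partly on the filter. Tubulin genes are close copies in their coding parts, so reads may be divided between them in ways that cannot be checked here.

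Beside Tuba1b, the alpha-tubulin Tuba1a had 168.3, 209, 93.2 and 281 CPM in cKO day 4 glomeruli, against 67.8, 34.6 and 89.3 CPM in cKO PBS glomeruli. Replicate 3 was the lowest day 4 library and lay just above the PBS range, at a log2 fold change of 1.56 ± 0.48. Tubb4b, a beta-tubulin, had 281, 384, 417 and 288 CPM at day 4, against 213, 144 and 258 CPM after PBS, also without overlap, at 0.74 ± 0.31. Stmn1, stathmin, which destabilises microtubules and is abundant in dividing cells, had 76.5, 221, 17.3 and 70.4 CPM at day 4, against 54.0, 18.01 and 30.6 CPM after PBS, with overlap. Its mean after PBS was 34.2 CPM, so it reached 50 CPM only through the day 4 group.

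Of 38 genes of the cell cycle and DNA replication list, 10 reached 50 CPM, with 8 higher, 2 lower and a median log2 fold change of 0.75. In none of the 10 were the groups free of overlap, and without replicate 3 of day 4 the median was 1.13. Top2a, the DNA topoisomerase of dividing cells, had 51.0, 423, 0 and 247 CPM in cKO day 4 glomeruli, against 12.7, 9.86 and 84.2 CPM in cKO PBS glomeruli. Replicates 2 and 4 lay far above every PBS library while replicate 3 held no read, and the log2 fold change was 2.34 ± 1.42. Mcm7, a subunit of the replicative helicase, had 48.0, 232, 1.46 and 234 CPM at day 4, against 0.625, 24.6 and 18.6 CPM after PBS, again high in replicates 2 and 4 and low in replicate 3. Ccnd1, cyclin D1 of the G1 phase, had 576, 196.6, 374 and 411 CPM at day 4, against 246, 227 and 255 CPM after PBS, at a log2 fold change of 0.68 ± 0.36. Top2a and Mcm7 were thus uneven within the day 4 group, while Ccnd1 was present in all 4 libraries and overlapped the PBS range through replicate 2. Top2a, Mcm7 and Stmn1 averaged 35.6, 14.6 and 34.2 CPM after PBS and reached 50 CPM only through the day 4 group. The count of higher members and the median of this list thus rest partly on the filter.

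Podocyte genes showed no common direction. Of 36 listed, 32 were tested, with 14 higher, 18 lower and a median log2 fold change of -0.13, which turned to 0.03 without replicate 1 of PBS and was -0.03 without replicate 3 of day 4. In 5 of the 32 (15.6%) every day 4 library lay below every PBS library, against 3.48% of all tested genes. Among them were Thsd7a, Vegfa, Robo2 and Synpo, and the single member wholly above was Actn4. Podocyte markers were present in every library, though the mean log2 CPM of the list stood apart in replicate 3 of day 4, at 7.07 against 7.86 to 7.97 in the other 3.

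Robo2, a Slit receptor of the foot process, had 74.6, 23.4, 30.9 and 101.1 CPM in cKO day 4 glomeruli, against 232, 173 and 187 CPM in cKO PBS glomeruli. All day 4 libraries lay below all PBS libraries, at a log2 fold change of -1.78 ± 0.58.

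Synpo, which encodes synaptopodin, an actin-associated protein of foot processes, had 1138, 1378, 733 and 1463 CPM in cKO day 4 glomeruli, against 2144, 1606 and 1779 CPM in cKO PBS glomeruli. The groups did not overlap, at a log2 fold change of -0.65 ± 0.29, and without replicate 3 of day 4 it was -0.47. Cd2ap, an adaptor of the slit diaphragm, had 129.6, 114, 195 and 383 CPM at day 4, against 515, 279 and 410.0 CPM after PBS, and replicate 4 of day 4 overlapped the PBS range.

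The structural genes of the slit diaphragm and apical surface showed no such pattern. Nphs1, which encodes nephrin, had 396, 609, 273 and 454 CPM in cKO day 4 glomeruli, against 488, 471 and 451 CPM in cKO PBS glomeruli. The day 4 libraries lay on both sides of the PBS libraries, the log2 fold change was -0.12 ± 0.36, and it was 0.05 without replicate 3 of day 4. Podxl, podocalyxin of the apical membrane, had 2545, 2426, 1601 and 3043 CPM at day 4, against 1277, 1997 and 2162 CPM after PBS, at 0.41 ± 0.39. Wt1, the transcription factor that marks podocyte nuclei, had 137, 18.3, 124 and 149.6 CPM at day 4, against 303, 160.7 and 90.8 CPM after PBS, with replicate 2 of day 4 far below the others, at -0.79 ± 0.57.

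Glomerular endothelial genes were divided in the same way. Of 25 listed, 19 were tested, with 8 higher, 11 lower and a median log2 fold change of -0.19, which turned to 0.03 without replicate 1 of PBS and was -0.05 without replicate 3 of day 4. Igfbp5, an insulin-like growth factor binding protein, had 840.3, 507, 289 and 825 CPM in cKO day 4 glomeruli, against 1862, 914 and 1288 CPM in cKO PBS glomeruli. Every day 4 library lay below the PBS libraries, with replicate 3 the lowest, at a log2 fold change of -1.14 ± 0.38. Ptprb, the endothelial phosphatase VE-PTP, had 318, 225, 232 and 327 CPM at day 4, against 669, 427 and 368 CPM after PBS, without overlap and at -0.83 ± 0.38. Emcn, the surface sialomucin endomucin, was higher, with 608, 1035, 833 and 712 CPM at day 4, against 512, 482 and 414 CPM after PBS, without overlap and at 0.76 ± 0.34. Flt1, a receptor for Vegfa, had 306, 149.6, 6.43 and 164 CPM at day 4, against 318, 299 and 317 CPM after PBS, and its log2 fold change of -0.99 ± 0.58 was -0.59 without replicate 3 of day 4, where it was nearly absent.

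Of 18 mesangial and juxtaglomerular genes, 11 were tested, with 4 higher, 7 lower and a median of -0.32, and 3 were lower without overlap (27.3%, against 3.48% of all tested genes). Gata3, a transcription factor of mesangial cells, had 184, 24.4, 34.9 and 184 CPM in cKO day 4 glomeruli, against 340.4, 211 and 228 CPM in cKO PBS glomeruli. The highest day 4 libraries lay below the lowest PBS library, at -1.28 ± 0.55. Ren1, renin of the juxtaglomerular cells, had 829.8, 966, 809.8 and 924 CPM at day 4, against 1026, 1192 and 1549 CPM after PBS, without overlap and at -0.51 ± 0.48. Sfrp2, a secreted modulator of Wnt signalling, had 210.2, 270.1, 225 and 139.7 CPM at day 4, against 343, 373 and 351 CPM after PBS, also without overlap. Des, desmin, an intermediate filament of mesangial cells and of injured podocytes, had 187, 486, 6.20 and 138 CPM at day 4, against 119, 109 and 50.3 CPM after PBS, with overlap.

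Only 5 of 18 parietal epithelial and crescent genes reached 50 CPM, 4 of them higher, and the summed level of the list was 860.1 to 1286 CPM at day 4, against 705.7 to 929.1 CPM after PBS. Cd74, the invariant chain of MHC class II and a receptor induced in activated parietal cells, had 156, 412, 143 and 307 CPM in cKO day 4 glomeruli, against 105, 126 and 77.6 CPM in cKO PBS glomeruli. The groups did not overlap, at a log2 fold change of 1.31 ± 0.64. Vcam1, an adhesion molecule, had 46.4, 47.4, 175 and 54.4 CPM at day 4, against 12.7, 51.3 and 50.6 CPM after PBS, and its log2 fold change of 1.08 ± 0.80 was 0.37 without replicate 3 of day 4.

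Matrix genes were higher in part. Of 34 interstitial and matricellular genes, 15 were tested, with 11 higher, 4 lower and a median log2 fold change of 0.26, which was 0.15 without replicate 3 of day 4. Of 19 basement membrane genes 12 were tested, with 9 higher, 3 lower and a median of 0.39. Col3a1, a fibrillar collagen, had 168.1, 222, 139 and 107.7 CPM in cKO day 4 glomeruli, against 55.8, 42.7 and 95.004 CPM in cKO PBS glomeruli. Every day 4 library lay above the PBS libraries, at 1.30 ± 0.51. Sparc, a matricellular protein that podocytes express strongly, had 4267, 4344, 1937 and 5052 CPM at day 4, against 3184, 2143 and 2083 CPM after PBS, with replicate 3 of day 4 below the PBS range and the others above it, at 0.66 ± 0.25.

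Col4a2, a type IV collagen chain of the capillary and mesangial matrix, had 567, 1122, 439.6 and 719 CPM in cKO day 4 glomeruli, against 450.4, 334 and 196 CPM in cKO PBS glomeruli. Only replicate 3 of day 4 overlapped the PBS range, at 1.12 ± 0.36. Col4a1, its partner chain, had 664, 633, 330.0 and 493 CPM at day 4, against 444, 336 and 245 CPM after PBS, at 0.63 ± 0.26. Nid1, the linker protein nidogen, had 87.9, 45.5, 53.2 and 13.2 CPM at day 4, against 106, 42.8 and 171 CPM after PBS, lower on average and with overlap, at -1.09 ± 0.55.

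Of 19 genes for S100 proteins and annexins, 12 were tested, with 11 higher and 1 lower. The median log2 fold change was 0.39, and 0.70 without replicate 3 of day 4. In 1 of the 12 (8.33%, against 3.79% of all tested genes) every day 4 library lay above every PBS library. The 7 members under 50 CPM are not in these counts. S100a13 averaged 37.9 CPM after PBS and passed 50 CPM only through the day 4 group. Anxa5, annexin A5, which binds phosphatidylserine, had 314, 362, 241 and 229.6 CPM in cKO day 4 glomeruli, against 135, 126 and 176 CPM in cKO PBS glomeruli. No day 4 library reached down to the PBS range, at 0.98 ± 0.31. S100a6, a calcium-binding protein of proliferating cells, had 168.3, 206, 178 and 464 CPM at day 4, against 89.6, 82.8 and 178 CPM after PBS, and replicate 3 of PBS lay within the day 4 range.

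Genes of mitochondrial respiration were higher to a smaller extent. Of 77 nuclear-encoded respiratory chain genes, 70 were tested, with 54 higher, 16 lower and a median log2 fold change of 0.42, which lay between 0.33 and 0.55 over the alternative analyses. In 6 of the 70 (8.57%) every day 4 library lay above every PBS library, against 3.79% of all tested genes. Uqcr11, a subunit of complex III, had 226, 352, 246 and 245 CPM in cKO day 4 glomeruli, against 155.1, 75.6 and 118 CPM in cKO PBS glomeruli. The groups did not overlap, at 1.20 ± 0.44. Atp5f1, a subunit of ATP synthase, had 123, 154.7, 585 and 135 CPM at day 4, against 23.1, 97.6 and 94.4 CPM after PBS, and replicate 3 of day 4 stood far above the rest. Its log2 fold change of 1.80 ± 0.65 was 0.94 without that library.

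Of 13 mitochondrially encoded genes 12 were tested, with 10 higher, 2 lower and a median of 0.27, which was 0.14 without replicate 3 of day 4. None was free of overlap over the 7 libraries, nor when replicate 1, 2 or 3 of day 4 was left out. Without replicate 4 of day 4 the values of 7 (58.3%, against 6.73% of all tested genes) lay wholly above those after PBS. That replicate had the lowest share of mitochondrial reads at day 4 (5.25%). Mitochondrial transcripts took 5.25% to 9.64% of reads at day 4 and 5.21% to 7.37% after PBS, with replicate 3 of day 4 the highest. mt-Nd2, a subunit of complex I, had 13300.2, 22909, 20886 and 10321 CPM at day 4, against 12024, 11667 and 15341 CPM after PBS, with replicates 2 and 3 of day 4 the highest. Proximal tubule cells are rich in mitochondria, and transcripts of that segment were present in every library. The 25 proximal tubule markers summed to 4109, 5737, 8685 and 2819 CPM at day 4, against 2597, 4774 and 5998 CPM after PBS, with replicate 3 of day 4 the highest. Their part in the mitochondrial values was not tested.

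Glycolysis, the pathway named in the title of the series, showed no common direction. Of 24 listed genes 10 were tested, with 6 higher, 4 lower and a median log2 fold change of 0.26, which turned to -0.03 when the number of detected genes was added to the model. Gapdh, which catalyses the oxidative step, had 134, 220.2, 212 and 114 CPM in cKO day 4 glomeruli, against 60.2, 65.0 and 95.6 CPM in cKO PBS glomeruli. Every day 4 library lay above the PBS libraries, at 1.21 ± 0.64. Aldoa, the aldolase isoform of muscle, had 276, 289, 91.0 and 271 CPM at day 4, against 308, 301 and 487 CPM after PBS, lower without overlap and at -0.66 ± 0.37. Replicate 3 of day 4 stood far below the other day 4 libraries for this gene, and the log2 fold change was -0.39 without it.

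Hk1, the hexokinase of most tissues, had 113, 224, 361 and 164 CPM in cKO day 4 glomeruli, against 157, 106 and 94.4 CPM in cKO PBS glomeruli, and Pkm, pyruvate kinase, had 217, 77.5, 263 and 138 CPM at day 4, against 365, 189 and 273 CPM after PBS. The groups of both overlapped, at log2 fold changes of 0.85 ± 0.51 and -0.67 ± 0.41, and that of Hk1 was 0.49 without replicate 3 of day 4. Of 27 genes of the citric acid cycle and fatty acid oxidation, 19 were tested, with 14 higher, 5 lower and a median of 0.13, which was 0.07 without the same library. Acadm, the medium-chain acyl-CoA dehydrogenase, had 141, 98.4, 187 and 36.4 CPM at day 4, against 195, 255 and 172 CPM after PBS, lower on average and with overlap.

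Cytosolic ribosomal protein genes were slightly higher. Of 85 listed 76 were tested, with 58 higher, 18 lower and a median log2 fold change of 0.25, and in 9 (11.8%, against 3.79% of all tested genes) every day 4 library lay above every PBS library. In 1 (1.32%, against 3.48%) every day 4 library lay below. Rps13 had 543, 579, 586 and 393 CPM in cKO day 4 glomeruli, against 260.5, 349 and 259.9 CPM in cKO PBS glomeruli. All 4 day 4 libraries were above the 3 PBS libraries, at 0.86 ± 0.27. Rps26 and Rpl11 did not overlap either, at 0.83 ± 0.26 and 0.93 ± 0.34. Genes of this family have many processed copies in the genome, so the division of their reads is uncertain.

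In the oxidative stress and glutathione list 23 of 29 genes were tested, with 18 higher, 5 lower and a median of 0.35. Ftl1, the ferritin light chain that stores iron, had 941, 944, 1269 and 1351 CPM in cKO day 4 glomeruli, against 637, 502 and 704 CPM in cKO PBS glomeruli. All day 4 values exceeded those after PBS, at 0.87 ± 0.26. Fth1, the heavy chain, had 962, 1025, 1662 and 727 CPM at day 4, against 514, 921 and 697 CPM after PBS, with overlap. Prdx5, a peroxiredoxin, had 552, 689.5, 1545 and 284 CPM at day 4, against 247, 309 and 630.4 CPM after PBS, and its log2 fold change of 0.96 ± 0.45 was 0.36 without replicate 3 of day 4.

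Genes of infiltrating leukocytes were near the lower limit of the comparison. None of 11 neutrophil genes and none of 17 T, B and NK cell genes reached 50 CPM, and 4 of 28 macrophage and monocyte genes did. Neutrophil genes summed to 0 to 33.3 CPM at day 4, against 23.47 to 53.16 CPM after PBS, and T, B and NK cell genes to 0.8783 to 109.4 CPM, against 41.92 to 200.8 CPM. Macrophage genes summed to 568.1 to 1204 CPM at day 4, against 678.6 to 765.8 CPM after PBS. Lyz2, lysozyme of myeloid cells, had 168.1, 61.4, 45.95 and 89.7 CPM in cKO day 4 glomeruli, against 18.02, 36.2 and 50.6 CPM in cKO PBS glomeruli. Day 4 replicate 3 lay within the PBS range, and the others above it. Csf1r, the receptor that macrophages depend on, was lower on average, with 29.2, 91.4, 18.1 and 30.9 CPM at day 4, against 132, 94.8 and 46.6 CPM after PBS. C1qa, a chain of complement C1q made by macrophages, had 81.3, 160.3, 0 and 115 CPM at day 4, against 3.28, 46.2 and 15.02 CPM after PBS, with overlap through replicate 3.

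All 9 tested genes of MHC presentation (of 17) had higher values at day 4. Their median log2 fold change was 0.81, and 0.59 without replicate 3 of day 4. In 2 of the 9 (22.2%, against 3.79% of all tested genes) the groups did not overlap. H2-Aa, a class II chain, had 308, 264, 304 and 210.4 CPM in cKO day 4 glomeruli, against 126, 126 and 175 CPM in cKO PBS glomeruli. The day 4 libraries lay above the PBS libraries, at 0.93 ± 0.34. H2-D1, a class I heavy chain, had 632, 449, 279 and 814 CPM at day 4, against 317, 356 and 255 CPM after PBS, with replicate 3 of day 4 within the PBS range. Class I genes share much of their sequence, so how their reads were divided is uncertain.

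Of 20 interferon response genes 8 were tested, with 3 higher, 5 lower and a median of -0.38, and 2 (25.0%, against 3.79% of all tested genes) were higher without overlap. The median was -0.09 without replicate 3 of day 4, and its sign turned in 2 of 20 alternative analyses, the highest value being 0.05. Ifi27 had 207, 271, 312 and 171 CPM in cKO day 4 glomeruli, against 126, 85.0 and 78.3 CPM in cKO PBS glomeruli. It was higher without overlap, at 1.32 ± 0.49. Ifitm3, a membrane protein that restricts viral entry, had 1074, 1009, 1234 and 1317 CPM at day 4, against 909, 921 and 747 CPM after PBS, also without overlap, at 0.43 ± 0.26. Of 28 genes for chemokines, adhesion and NF-kappaB 7 were tested, with 6 higher and a median of 0.79. Vcam1 and Cx3cl1 of this list averaged under 50 CPM after PBS and reached that level only through the day 4 group. Cxcl12, a chemokine of podocytes, had 279, 191, 47.02 and 237 CPM at day 4, against 73.6, 89.8 and 108.01 CPM after PBS, with 3 of 4 day 4 libraries above the PBS range, at 1.06 ± 0.53. Nfkbia, the inhibitor of NF-kappaB that this factor induces, had 349, 455, 258 and 361 CPM at day 4, against 268, 201 and 235 CPM after PBS, and replicate 3 of day 4 lay just below the highest PBS library.

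Complement genes, of which 7 of 17 were tested, had values in both directions. Of the 7, 4 were higher and 3 lower, with a median of 0.48, which was 0.22 without replicate 3 of day 4 and turned to -0.50 in limma voom. Serping1, the C1 inhibitor, had 160.1, 73.7, 121 and 87.3 CPM at day 4, against 8.96, 60.0 and 79.3 CPM after PBS. Its groups overlapped, at 1.16 ± 0.70.

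The stress and signalling lists showed no common direction. Immediate early genes (9 of 22 tested, 6 higher, 3 lower) had a median of 0.33, which was 0.04 without replicate 3 of day 4. Cytosolic heat shock genes (11 of 15 tested, 7 higher, 4 lower) had a median of 0.23. Endoplasmic reticulum chaperones (12 of 19 tested, 6 higher, 6 lower) had a median of 0.01, and TGF-beta and BMP genes (8 of 23 tested, 3 higher, 5 lower) a median of -0.07. Klf4, a transcription factor of podocytes and endothelium, had 219, 58.1, 131 and 193 CPM at day 4, against 92.6, 90.6 and 60.1 CPM after PBS, and Hsp90aa1, the inducible cytosolic Hsp90, had 354, 319, 168.6 and 377 CPM at day 4, against 512, 579.6 and 289.9 CPM after PBS. Both overlapped, at 0.89 ± 0.58 and -0.60 ± 0.33, and the value of Hsp90aa1 was -0.40 without replicate 3 of day 4. Id1, a target of BMP signalling, had 124, 42.1, 195 and 62.2 CPM at day 4, against 41.6, 59.3 and 63.4 CPM after PBS, and its log2 fold change of 0.95 ± 0.55 was 0.48 without replicate 3 of day 4. Of the p53 and apoptosis list 5 of 13 were tested. Cdkn1a, the cell cycle inhibitor p21, had 133, 74.7, 0 and 162 CPM at day 4, against 57.9, 84.8 and 23.4 CPM after PBS, with no read in replicate 3 of day 4.

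Transcripts from outside the glomerulus varied between libraries. Distal nephron and collecting duct genes summed to 2357, 2251, 4852 and 1851 CPM at day 4, against 2269, 2838 and 1967 CPM after PBS, highest in replicate 3 of day 4. Umod, uromodulin of the thick ascending limb, had 657, 807, 2467 and 589 CPM at day 4, against 457, 826 and 479 CPM after PBS, and its log2 fold change of 0.94 ± 0.47 was 0.22 without that library. Erythrocyte genes summed to 2871, 3564, 5191 and 5895 CPM at day 4, against 18310, 2053 and 13230 CPM after PBS. Hba-a2, alpha-globin, had 1046, 1919, 2199 and 2535 CPM at day 4, against 10203, 907 and 6544 CPM after PBS, high in replicates 1 and 3 of PBS. The part of tubule or blood RNA in the values above was not tested.

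**Figure D4:**
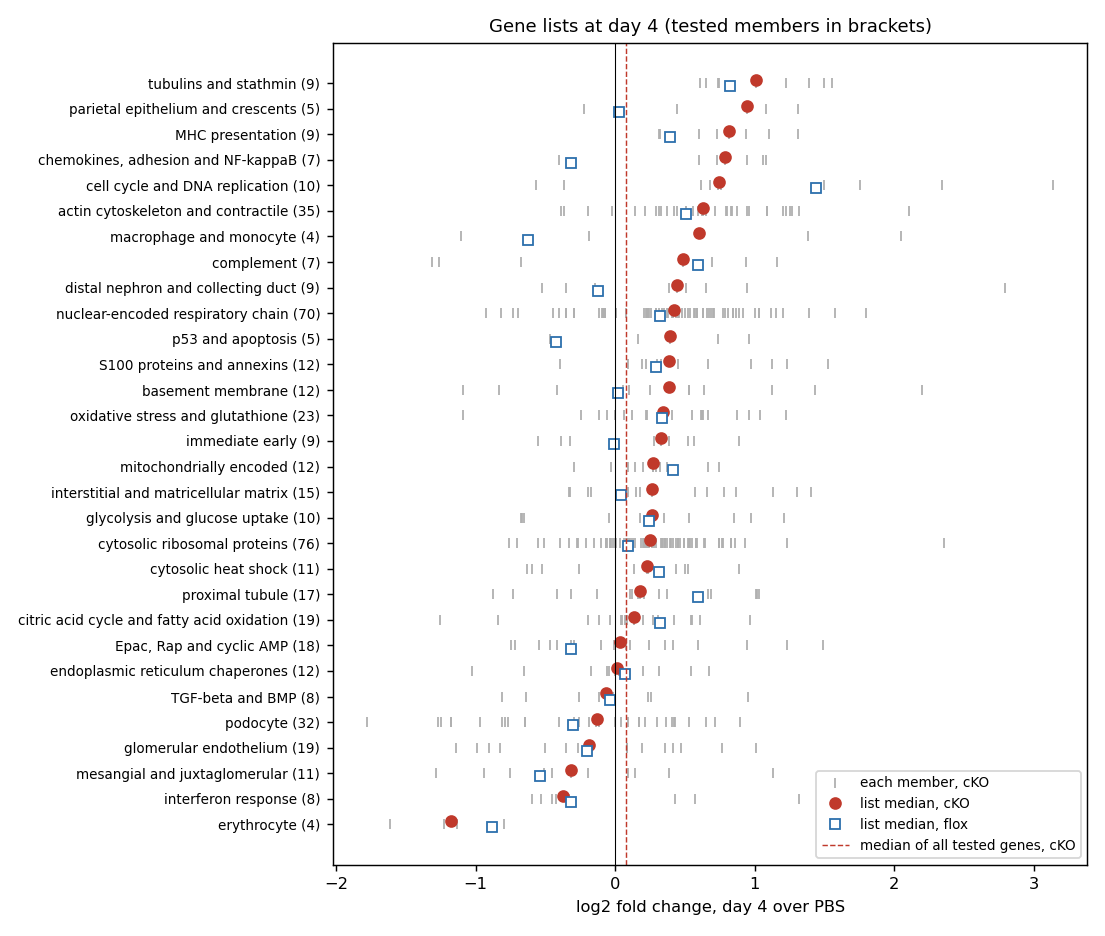
Log2 fold change of day 4 over PBS by gene list, with each tested cKO member as a grey tick, the cKO median as a red circle and the flox median as an open blue square; the dashed line is the cKO median of all 3505 genes (0.08). Tubulins (1.01) and actin genes (0.63) lie to the right in cKO and also in flox (0.82 and 0.50), and podocyte genes lie left of 0 in both (-0.13 in cKO and -0.30 in flox).

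The same contrast in flox littermates was set beside these values, and the difference between the genotypes was tested directly. The serum effect at day 4 in cKO minus that in flox had an edgeR adjusted p under 0.05 in 0 of 3505 genes (0%), with a smallest adjusted p of 0.568 and 90 genes at an unadjusted p under 0.05, while DESeq2 called R3hdm4, Syf2 and Sept2. For Sept2 the DESeq2 log2 difference was -26.25, which is not read as an effect size, and its edgeR adjusted p was 0.9999. In flox alone, 0 genes passed as well, with a smallest adjusted p of 0.0538 in edgeR. The medians of the lists lay on the same side of 0 in both genotypes for actin genes (0.63 in cKO and 0.50 in flox), tubulins (1.01 and 0.82), respiratory chain genes (0.42 and 0.32), cell cycle genes (0.75 and 1.44) and podocyte genes (-0.13 and -0.30). They lay on opposite sides for 6 lists: chemokine, adhesion and NF-kappaB genes (0.79 in cKO and -0.32 in flox), the 4 macrophage genes (0.60 and -0.62), p53 and apoptosis genes (0.39 and -0.43), distal nephron genes (0.44 and -0.12), Epac, Rap and cyclic AMP genes (0.04 and -0.31) and immediate early genes (0.33 and -0.01). The macrophage median in cKO turned to -0.19 at a mean CPM of at least 100. Of these 4 genes, Lyz2 and C1qa averaged 34.9 and 21.5 CPM in cKO PBS and passed 50 CPM only through cKO day 4. Flox values took no part in that filter. In the chemokine, adhesion and NF-kappaB list, Vcam1 and Cx3cl1 likewise averaged under 50 CPM in cKO PBS and passed only through cKO day 4. None of its 7 tested genes had cKO groups without overlap, though its cKO median stayed between 0.50 and 0.96 over the alternatives. The p53 median in cKO was 0.004 without replicate 3 of day 4, and its sign turned in 2 of 20 alternatives. The median cKO minus flox difference of its genes was -6.2e-05. In limma voom the cKO medians of distal nephron and immediate early genes turned to -0.11 and -0.22. The difference between the medians was not tested for any list.

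Among the genes with the smallest p in cKO, Tpm4 had a log2 fold change of 1.22 in cKO and 1.19 in flox, Tuba1b 1.01 and 1.44, and Thsd7a -1.18 and -1.50. Serinc1 stood at -1.94 in cKO and 0.21 in flox, Ets1 at -1.81 and 0.06, and Robo2 at -1.78 and -0.02. For these last 3 genes the cKO minus flox difference was -2.15 ± 0.77, -1.86 ± 0.85 and -1.75 ± 0.84, each with an edgeR adjusted p of 0.9999. R3hdm4 stood at 1.78 in cKO and -1.46 in flox. Its levels were 164 ± 21.9 CPM in cKO day 4 (SD, n = 4) and 47.9 ± 17.3 CPM in cKO PBS (n = 3), and 49.4 ± 22.1 CPM in flox day 4 and 136 ± 65.0 CPM in flox PBS (n = 3 each). Its difference of 3.24 ± 0.71 had the smallest p of all 3505 genes (edgeR adjusted p = 0.568, DESeq2 adjusted p = 0.00543), and the 4 cKO day 4 libraries all lay above the 3 cKO PBS libraries. R3hdm4 passed 50 CPM only through cKO day 4, and flox values took no part in that filter, so its direction was partly set by the filter.

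**Figure D5:**
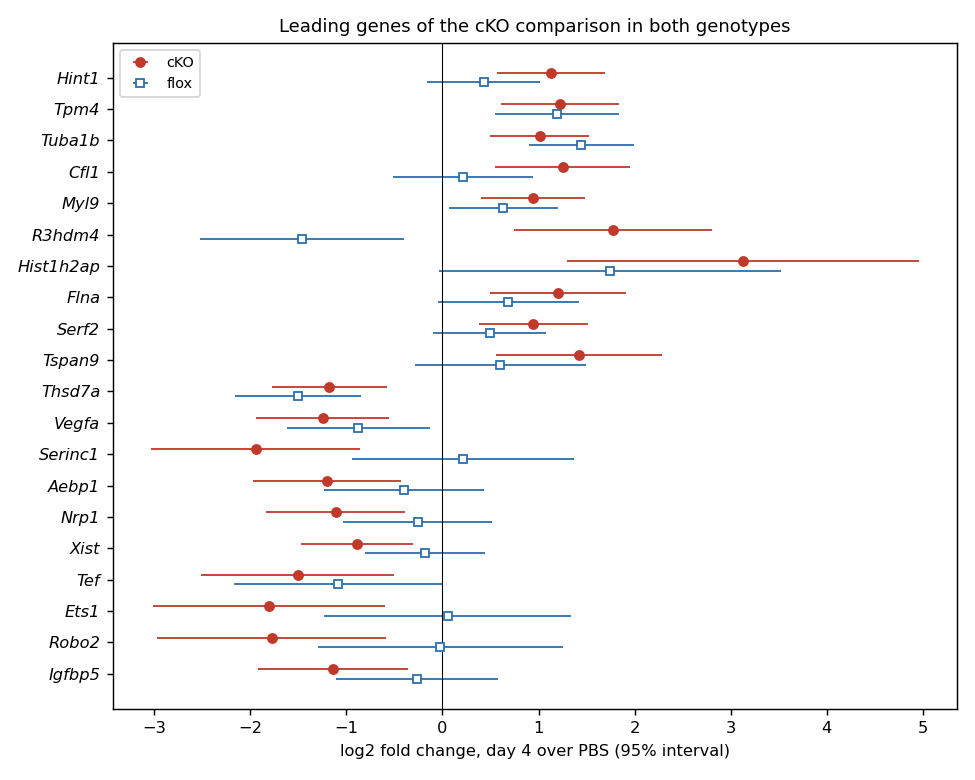
Log2 fold change of day 4 over PBS with its 95% interval from the edgeR fit, in cKO (red circles) and flox (open blue squares), for the 20 genes named by the smallest p in cKO. The intervals of Tpm4, Tuba1b, Thsd7a and Vegfa lie on the same side of 0 in both genotypes, and R3hdm4 lies on opposite sides.

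At day 11 the cKO glomeruli were compared with those of day 4, which are the same day 4 libraries as above. No gene (0%) had an edgeR adjusted p under 0.05, the smallest was 0.0523, and 277 genes had an unadjusted p under 0.05, of which 93 were higher and 184 lower at day 11. DESeq2 called 25 genes. The day 11 libraries varied more in depth, from 4550545 reads in replicate 3 to 17200905, against 12465771 to 22351044 at day 4. Their median rank correlations within the group were 0.674 to 0.692, against 0.356 to 0.549 at day 4. Ribosomal RNA took 22.2% to 39.5% of reads at day 11, against 14.9% to 20.7% at day 4. The part of these in the differences was not tested. The respiratory chain list had a median log2 difference of -0.69 for day 11 over day 4, against -0.15 over all genes, the mitochondrially encoded genes -0.86, and the proximal tubule markers -0.96. Interstitial and matricellular genes had a median of 0.51, actin genes 0.17 and tubulins -0.31.

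The gene with the smallest p was Spp1, osteopontin, a matricellular protein, with 369 ± 142 CPM at day 11 and 78.7 ± 24.04 CPM at day 4 (SD, n = 4 each), a log2 difference of 2.23 ± 0.40 (edgeR adjusted p = 0.0523). Cald1, caldesmon, which binds actin and myosin, had 2253 ± 196 CPM at day 11 and 1013 ± 272 CPM at day 4, at 1.15 ± 0.23 (edgeR adjusted p = 0.0554). Both genes were chosen after their values were seen. Cald1 was among the 4 actin genes whose values were lower at day 4 than after PBS.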

How the data were processed

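RNA of laser-microdissected glomeruli was sequenced by the authors with the QuantSeq 3' FWD kit, 1 library per mouse. The deposited tables hold estimated counts per gene (a NumReads column, per the file headers), which the authors made from reads; the submitters' processing notes name FastQC, fastp, DRAGEN and Picard and the mm10 build, with no versions, and the handling of strand, duplicates and shared reads is not given in the sources used here. All values were rounded to whole numbers, which 95.17% of those above 0 already were within 0.005. Identifiers were matched to symbols and positions in GENCODE M21 for 35513 of 35598 genes, and no pair of libraries held identical values. QuantSeq tags transcript ends, so counts were not divided by length and levels are not compared between genes.

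Counts were fitted in edgeR 4.0.16 (R 4.3.3) with TMM scaling (factors 0.937 to 1.09 in the 7 libraries), the robust quasi-likelihood test, 6 group means over 21 libraries and 15 residual degrees of freedom. TMM factors came from 13898 genes that passed filterByExpr (minimum count 10). The 3505 genes with a mean of at least 50 CPM in the 7 libraries were tested; they took 82.6% to 85.9% of the reads in each of the 7. A gene high in 1 group alone could pass this mean, so its direction was then partly set by the filter. Besides the genes marked in the text, this applies to Serping1, under 50 CPM on average after PBS. It also applies to Csf1r and Nid1, under 50 CPM on average at day 4. Called means a Benjamini-Hochberg adjusted p under 0.05 over the genes tested. CPM are TMM-scaled counts, and 1 CPM stands for 13.1 to 22.6 reads in the 7 libraries. The common biological coefficient of variation was 0.712 in these genes. Fold changes are log2, day 4 over PBS, with standard errors from the edgeR F statistic. Each library is a separate mouse, so p-values measure the spread between mice, preparation included. DESeq2 1.42.0, limma 3.58.1 (voom with quality weights), other filters, scalings and covariates, and each library left out in turn were alternatives. The test was checked on simulated data.

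Genes were named by a rule (the 10 with the smallest p in each direction, up to 4 per list, and Rapgef3, Rapgef4 and a few podocyte genes); among genes outside it, Acta2, Tagln, Actn1, Tln1, Myl6, Actg1, Vcl, Cnn2, Fhl2, Arpc2, Cald1, Cnn3 and Cd2ap are list members chosen after their values were seen. The comparison and the gene lists were chosen with earlier results of these data known. Some genes are not reported here. Promoter windows and chromosome positions of genes are from RefSeq (GRCm38.p6) and GENCODE M21. Figures were drawn with matplotlib 3.10.9.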

Additional observations from a re-analysis of the deposited data

Results flagged for a closer look

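Of 139 gene and list values checked in the 4 day 4 libraries, 16 had a library that stood apart from the other 3 beyond Dixon's limit, and 15 of these were in replicate 3. Chance alone marks about 5% of such groups. All values are log2 CPM (a gene without reads stands at -3.16), with replicate 3 of day 4 first and the range of the other day 4 libraries after it.

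Among genes, Tuba1b stood at 9.30 against 10.0 to 10.2, Flna at 8.45 against 9.61 to 9.83, and Aldoa at 6.51 against 8.08 to 8.18. C1qa, Cdkn1a and Rapgef4 stood at -3.16, against 6.35 to 7.33, 6.23 to 7.34 and 5.60 to 7.11 in turn. Atp5f1 stood above the rest, at 9.19 against 6.95 to 7.27, as did Vcam1, at 7.46 against 5.54 to 5.77. Wt1 was the exception, with replicate 2 at 4.21 against 6.95 to 7.23.

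Among gene lists, given as the mean log2 CPM of the tested members, the podocyte list stood at 7.07 in replicate 3 against 7.86 to 7.97, and S100 proteins and annexins at 5.54 against 7.47 to 7.86. The cell cycle and DNA replication list stood at 2.76 against 6.83 to 7.43, the p53 and apoptosis list at 2.22 against 6.16 to 6.41, and the macrophage and monocyte list at 3.67 against 6.5 to 7.0. The chemokine, adhesion and NF-kappaB list stood at 4.67 against 6.50 to 6.86, and the interferon response list at 5.16 against 7.08 to 7.29. In 234 tested genes this library held no read, which lowers such means.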

How the results depend on the processing

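For cKO day 4 against cKO PBS, 17 of 20 alternatives called 0 genes. DESeq2 called 10, limma voom with quality weights called 2, and the fit without a filter on low counts called 1 (Zfp609, lower, of 18311 genes tested). Leaving out each of the 7 libraries in turn gave 0 calls each time, with 102 to 233 genes at an unadjusted p under 0.05 and the smallest adjusted p, 0.0907 in edgeR, without replicate 3 of day 4. The cKO minus flox difference had 0 calls in 25 of 26 alternatives and 3 in DESeq2. For cKO day 11 against day 4, 13 of 21 alternatives called 0, while 8 genes were called without a filter, 5 at a mean CPM of at least 100, 25 in DESeq2, 1 in limma voom, 5 without ribosomal RNA, mitochondrial and haemoglobin genes, and 0 to 4 with 1 library left out: 4 without day 4 replicate 1, 3 without day 4 replicate 4 and 2 without day 11 replicate 3. The cause of these differences was not tested. Leaving out replicate 3 of both cKO serum groups was added after seeing the data and called 0 genes in all 3 comparisons. The counts of genes without overlap when 1 day 4 library is left out were likewise added.

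The log2 fold change of Rapgef3, -0.01, became 0.05 (0.04779) with median-ratio scaling, 0.32 in limma voom, 0.07 (0.06567) with the proximal tubule level and 0.12 with the number of detected genes in the model, and lay between -0.31 and 0.25 with 1 library left out (0.20 without both replicates 3). Rapgef4, 0.10, became -0.20 with detected genes in the model and lay between -0.74 and 0.61 with 1 library left out. Nphs1, -0.12, lay between -0.33 and 0.049 with 1 library left out, the highest without replicate 3 of day 4, and was also 0.049 without both replicates 3. Cnn3, -0.02, became 0.067 with median-ratio scaling and 0.11 with the replicate block, and lay between -0.19 and 0.18 with 1 library left out. The sign turned without PBS replicate 3 (0.18), day 4 replicate 2 (0.14) and day 4 replicate 4 (0.038). Median-ratio scaling moved the all-gene median to 0.16, against 0.08 with TMM, and that of the cKO minus flox difference to 0.18, against 0.04. These alternatives were followed for 103 named genes, and the other 99 kept their direction in every one.

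With the replicate number as a block, cKO day 4 against cKO PBS, the cKO minus flox difference and day 11 against day 4 each had 0 calls. Same-numbered cKO day 4 and PBS libraries had correlations of deviations of 0.0413, 0.00129 and 0.0431, so no pairing by number was seen in these groups. The other groups were not checked, and a shared batch was not tested. With 4 against 3 libraries and values this uneven, a difference that was not called is not shown to be absent.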

Other observations

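Fam221b, which was chosen after its values were seen, had no read in any cKO PBS library and in day 4 replicates 1 and 4, and stood at 208.9 and 291.3 CPM in day 4 replicates 2 and 3. Hk2, the inducible hexokinase and below the level tested, was at 0 in all 4 day 4 libraries, against 17, 0 and 4.74 CPM in the PBS libraries.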
